A study of Homo sapiens with 6 samples.

Results

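The genes of the SRSF, HNRNP, SNRP and SF3 families, which encode core parts and regulators of the pre-mRNA splicing machinery, were examined in MCF10A cells after PAX9 depletion. The members were found by symbol, namely SRSF, SF3A or SF3B with a number, or HNRNP or SNRP with a further letter, leaving out antisense names. Of the 26822 symbols in the RNA-seq table, 63 met this rule, and 59 of them had a mean FPKM of at least 1 over both groups. FPKM divides the sequenced fragments of a gene by its length and by the mapped total, and so allows levels to be compared between genes. MCF10A is an established line of non-tumorigenic human breast epithelial cells. The 6 libraries of poly(A)+ RNA came from 3 siNT samples, which received a non-targeting siRNA, and 3 siPAX9 samples, which received siRNAs against PAX9, an RNA polymerase II transcription factor. In both groups the siRNA was at 30 nM for 72 hours.

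The deposited table holds 1 FPKM per gene and group, the authors' value for the 3 libraries together. No error between replicates could be computed from these values, and the authors' own test columns were not used, so every difference below is one between 2 group values, given with no replicate check. The depth of each library is not part of the table. PAX9 itself was at 2.80 FPKM in siNT and 0.325 in siPAX9. The 8 epithelial markers checked were all present, between 31.4 and 1718 FPKM in siNT and between 16.7 and 2088 in siPAX9. Of 12 markers of fibroblasts, endothelium and immune cells, COL3A1 and CD3E were listed at 0 in both groups, and COL1A2 and CDH5 at 0 in siNT. The summed FPKM of the 5 fibroblast markers was 6.32 in siNT and 42.1 in siPAX9, mostly DCN, and that of the 4 immune markers was 17.8 and 60.4, mostly CD14. Their part in the values below was not tested. The 3 endothelial markers summed to 2.58 and 0.516. In bulk RNA, fewer cells of a type and less RNA per cell cannot be told apart.

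Splicing removes introns from pre-mRNA on the spliceosome, which is built from small nuclear ribonucleoproteins (snRNPs). Most snRNPs hold a small nuclear RNA, a ring of Sm proteins encoded by SNRP genes (the U6 snRNP has a ring of LSm proteins), and particle-specific proteins, among which the SF3A and SF3B complexes of the U2 snRNP recognise the branch site. SR proteins (SRSF genes) mostly promote the use of exons, and the hnRNP proteins (HNRNP genes) bind nascent RNA and often oppose them. Such genes are expressed at high levels in dividing cells, and many of them regulate their own mRNA through alternative splicing.

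Most splicing factor genes were lower in siPAX9 than in siNT. Of the 59 members with a mean FPKM of at least 1, 55 were lower and 4 were higher, against 55.4% lower among all 13145 symbols at that level. The median log2 ratio of FPKM in siPAX9 over siNT was -0.46 for the members and -0.07 for all symbols. At least 1.5-fold lower were 20 members (33.9%, against 16.5% of all symbols), and 1 member was at least 1.5-fold higher (13.3% of all symbols were). At least 2-fold lower were 7 members (11.9%, against 6.57% of all symbols), and none was 2-fold higher (6.37% of all symbols were). The 7 are SNRPA, SNRPB2, SNRPE, SNRPF, HNRNPA1, HNRNPA1P10 and HNRNPA1L2, of which HNRNPA1 and HNRNPA1P10 share 1 row. When the ratios were centred on the median of all symbols, SNRPE (-0.98) and SNRPF (-0.99) were no longer past 2-fold, which left 5 members beside 5.68% of all symbols. Centring likewise left 17 members at least 1.5-fold lower, beside 14.2% of all symbols.

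Highly expressed genes were lower more often in this dataset, and the members are highly expressed. Among the 1559 symbols with a mean FPKM of at least 50, a limit chosen after the data were seen, the median log2 ratio was -0.27 and 69.3% were lower, against a median of -0.52 and 28 of 30 members. At that level 11 of the 30 members were at least 1.5-fold lower (36.7%, against 26.0% of all symbols). For 2-fold lower, 2 of 30 members (6.67%) stood beside 8.40% of all symbols, a share near the background, and these 2, HNRNPA1 and HNRNPA1P10, are the same row. Upward, 9.24% of all symbols at that level were at least 1.5-fold and 3.91% at least 2-fold higher, and none of the 30 members was. Among the 7008 symbols with a mean FPKM of at least 10, 61.4% were lower, beside 51 of 55 members, and 16.9% were at least 1.5-fold lower, beside 19 members. At this lower level, 5.32% of all symbols and 7 members were at least 2-fold lower, while 8.45% of all symbols were at least 1.5-fold and 3.48% at least 2-fold higher. SNRPN was the 1 member at least 1.5-fold higher. The ratios of the members were mostly moderate and in 1 direction, with quartiles of -0.70 and -0.28.

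**Figure D1:**
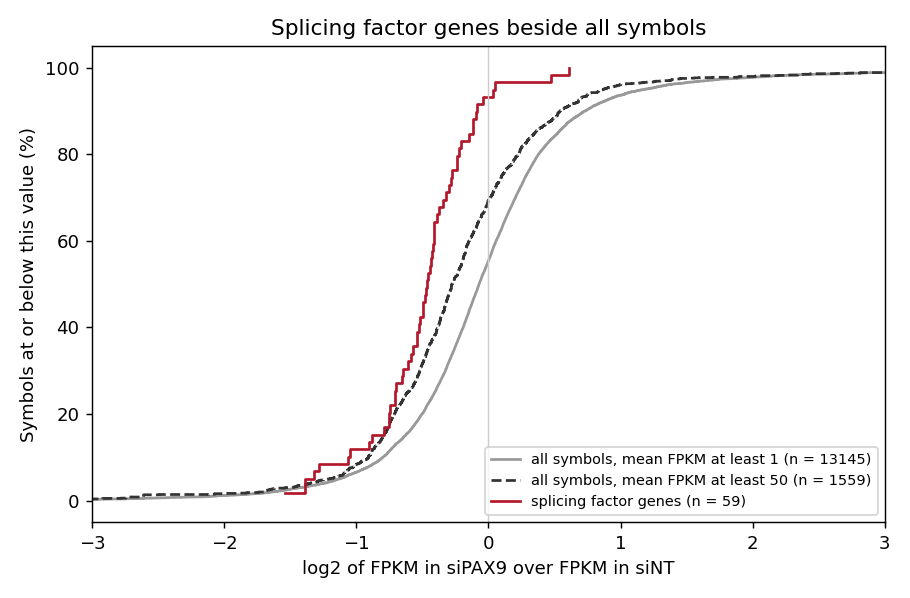
Cumulative share of symbols (vertical axis, percent) at or below each log2 ratio of FPKM in siPAX9 over siNT (horizontal axis), for all 13145 symbols with a mean FPKM of at least 1, the 1559 with at least 50, and the 59 splicing factor genes. The curve of the splicing factor genes lies to the left of both others near its median of -0.46, and it reaches 100% at 0.61, where the other curves have not.

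The SNRP genes had the lowest median of the 4 families, -0.73, with 11 of 12 lower (91.7%, against 55.4% of all symbols). At least 1.5-fold lower were 8 (66.7%, against 16.5%) and at least 2-fold lower were 4 (33.3%, against 6.57%). SNRPA, which encodes the A protein of the U1 snRNP, which binds a loop of U1 RNA, had the lowest log2 ratio of all members. Its FPKM was 50.6 in siNT and 17.4 in siPAX9, a log2 ratio of -1.54. The locus lies on chromosome 19 from 41256759 to 41271297 (UCSC hg19). SNRPB2 encodes the corresponding B″ protein of the U2 snRNP, a close relative, and went from 26.8 to 11.0, a log2 ratio of -1.28. The other particle-specific members differed less. SNRPC, the C protein of the U1 snRNP, had 41.2 FPKM in siNT and 30.8 in siPAX9 (log2 ratio -0.42), and SNRPA1, which encodes the A′ partner of B″, had 18.9 and 15.2 (log2 ratio -0.32). SNRPA and SNRPB2, related RNA-binding proteins, thus had larger differences than SNRPC and SNRPA1.

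The 7 genes of the Sm ring, the set of proteins that closes around the Sm site of spliceosomal RNAs, were all lower. Their median log2 ratio was -0.75, with a range of -1.06 to -0.49. Of all symbols, 55.4% were lower and 16.5% at least 1.5-fold lower. SNRPF was at 56.7 FPKM in siNT and 27.2 in siPAX9, and SNRPE at 40.7 and 19.7. SNRPB, which shares its locus with the small nucleolar RNA SNORD119, was at 116 and 62.0. SNRPF, SNRPE and SNRPB stood at log2 ratios of -1.06, -1.05 and -0.91. SNRPD1 went from 31.4 to 18.7 FPKM (log2 ratio -0.75) and SNRPG from 68.6 to 41.9 (log2 ratio -0.71). SNRPD2 was the most abundant Sm gene, at 242 FPKM in siNT and 159 in siPAX9, with a log2 ratio of -0.61. SNRPD3, the partner of SmB in the ring, went from 33.4 to 23.8 (log2 ratio -0.49) and was the single Sm ring gene under 1.5-fold. The abundance of these genes, whose proteins are used in equal number in the ring, thus spanned 31.4 to 242 FPKM in siNT.

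SNRPN was the exception in the family. It encodes SmN, a relative of SmB that is best known from brain and lies in an imprinted region, and shares its locus on chromosome 15 (25068784 to 25223870) with SNURF. Its FPKM was 33.3 in siNT and 50.7 in siPAX9, a log2 ratio of 0.61, the highest of all members and the opposite direction to SNRPB. The coding sequences of SNRPN and SNRPB were 82.1% identical, and the locus of SNRPN also overlaps the long noncoding gene SNHG14. Reads of these transcripts could not be told apart in a single locus value.

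The HNRNP family had 27 members at the level examined, 26 lower and 1 higher, where 55.4% of all symbols were lower. Its median log2 ratio was -0.47. Of these, 9 were at least 1.5-fold lower (33.3%, against 16.5% of all symbols), with HNRNPA1 and HNRNPA1P10 counted singly though they are 1 row. HNRNPA1, an abundant nuclear RNA-binding protein and a repressor of many exons, differed most. It was at 255 FPKM in siNT and at 97.4 in siPAX9, a log2 ratio of -1.39 (chromosome 12, 54674474 to 54680879, UCSC hg19). The row also lists HNRNPA1P10, which GENCODE places on chromosome 19. HNRNPA1L2, a coding copy of HNRNPA1 on chromosome 13 that GENCODE gives as a single exon, was at 67.4 and 27.0 (log2 ratio -1.32). Its coding sequence matched that of HNRNPA1 at 98.4% of the positions aligned without a gap, so reads of the 2 genes can be exchanged and its value is uncertain.

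The closest relatives of HNRNPA1 differed less. HNRNPA3 went from 58.2 to 34.5 FPKM (log2 ratio -0.75) and HNRNPA0, a single-exon gene, from 91.2 to 57.8 (log2 ratio -0.66). HNRNPA2B1, which binds many of the same RNA motifs, was at 219 in siNT and 159 in siPAX9, with a log2 ratio of -0.46. HNRNPAB was at 166 and 131, with a log2 ratio of -0.34. In siNT, HNRNPA1 was thus above HNRNPA2B1, and in siPAX9 it was below it.

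The G-tract binding group of HNRNPF and the HNRNPH genes had similar ratios. HNRNPF was at 155 FPKM in siNT and 108 in siPAX9 (log2 ratio -0.53), and HNRNPH1 at 293 and 205 (log2 ratio -0.52). HNRNPH3 was at 50.1 and 37.2 (log2 ratio -0.43). HNRNPH2, at 74.6 and 55.2 (log2 ratio -0.43), shares a locus with the ribosomal protein gene RPL36A, and its value cannot be separated from it. All 4 were under 1.5-fold.

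HNRNPU, which binds chromatin-associated RNA in the nucleus, was listed with the highest FPKM of all members, 2218 in siNT and 1284 in siPAX9, a log2 ratio of -0.79. Its row also carries the small nucleolar RNA SNORA100, and no other member exceeded 293 FPKM. An unnamed locus over HNRNPUP1, a copy of HNRNPU on chromosome 14, had 442 FPKM in siNT and 424 in siPAX9, a log2 ratio of -0.06. The value of HNRNPU is uncertain. Of the other abundant members, HNRNPC, which coats nascent transcripts at uridine tracts, went from 155 to 103 (log2 ratio -0.59) and HNRNPK, a poly(C)-binding protein, from 176 to 119 (log2 ratio -0.57). HNRNPM had a log2 ratio of -0.75 and HNRNPL of -0.41. The smallest differences were those of HNRNPLL, at 8.79 and 8.22 FPKM, and of the locus of HNRNPCL1 and HNRNPCL3, at 7.90 and 7.30, and both loci are lowly expressed. Among the HNRNP symbols with a mean FPKM of at least 1, HNRNPA1P33 was the single one that was higher, with 26.3 in siNT and 36.7 in siPAX9. Its locus on chromosome 10 is 61807 bases long and also overlaps the noncoding gene LINC00842.

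The SF3 genes were lower in 9 of 9 cases, where 55.4% of all symbols were. They differed by less than the SNRP genes, with a median log2 ratio of -0.39. In the SF3A complex, SF3A2 had 32.6 FPKM in siNT and 20.0 in siPAX9, a log2 ratio of -0.70 and the only SF3 gene past 1.5-fold (11.1% of the 9, under the 16.5% of all symbols). It shares its row with AMH and MIR4321. SF3A3 went from 21.3 to 16.5 (log2 ratio -0.37) and SF3A1 from 20.2 to 17.4 (log2 ratio -0.21). In the SF3B complex, SF3B4 was at 32.6 and 23.8 (log2 ratio -0.45). SF3B5 and SF3B6, both small proteins, the latter at the branch-site adenosine, were at 117 and 88.1 and at 107 and 80.2, with log2 ratios of -0.42 and -0.41. SF3B3 was at 37.7 and 28.8 (log2 ratio -0.39) and SF3B2 at 45.2 and 36.7 (log2 ratio -0.30). SF3B1, the scaffold of the complex and a frequent target of mutation in blood cancers, was at 98.2 and 92.3, a log2 ratio of -0.09 that is close to the median of all symbols. The 6 SF3B genes thus ranged from -0.45 to -0.09.

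The SRSF genes had 9 of 11 lower, beside 55.4% of all symbols, and 2 at least 1.5-fold lower (18.2%, near the 16.5% of all symbols). Their median log2 ratio was -0.27. This was the family median nearest to that of all symbols at a mean FPKM of at least 1, but at 50 or more the SRSF median was -0.51 and that of SF3 was -0.41, so the order of these families turned. SRSF3, the smallest SR protein, had 75.5 FPKM in siNT and 41.0 in siPAX9, a log2 ratio of -0.88. SRSF2, also called SC35, shares its row with MIR636 and had 168 and 103, a log2 ratio of -0.70. SRSF9 (log2 ratio -0.54), SRSF7 (-0.54) and SRSF1 (-0.48), general SR proteins, formed a middle group just under 1.5-fold. SRSF6 was at -0.27, SRSF8 at -0.23 and SRSF10, an SR protein that represses splicing when dephosphorylated, at -0.15. The remaining genes hardly differed. SRSF4 was at 47.9 FPKM in siNT and 46.5 in siPAX9 (log2 ratio -0.04), SRSF11 at 76.4 and 78.3 (log2 ratio 0.04) and SRSF5 at 124 and 129 (log2 ratio 0.05). SRSF5 was the second most abundant SR gene in siNT and the most abundant in siPAX9. Relative to the median of all symbols, SRSF4 was also on the higher side, at 0.03.

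**Figure D2:**
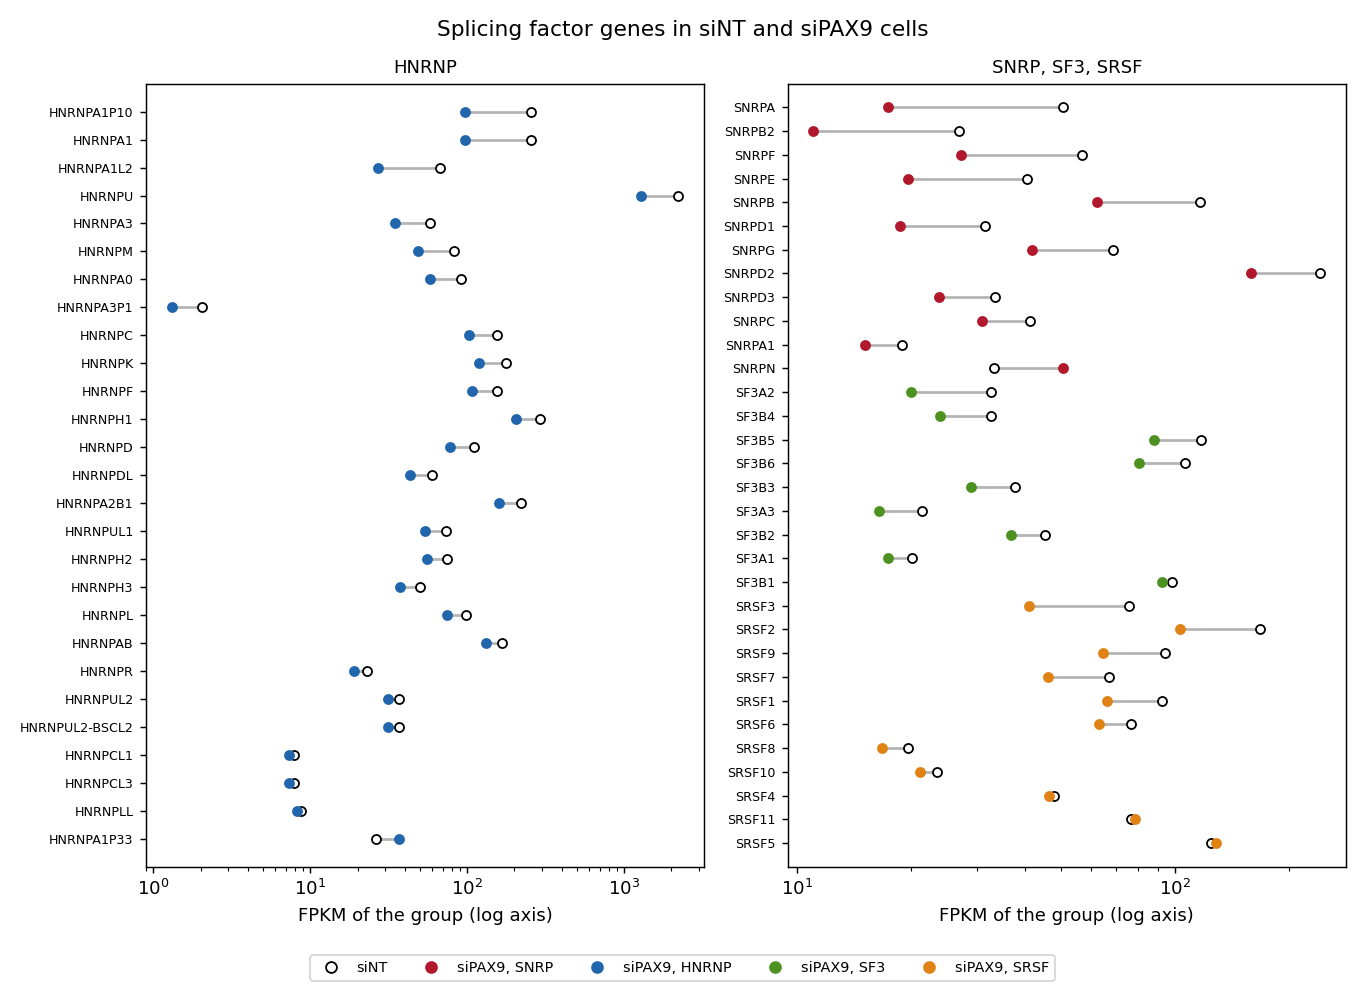
FPKM (log axis) of each of the 59 members in siNT (open circles) and siPAX9 (filled circles, coloured by family), sorted within each family by log2 ratio, with 1 value per group and no error. The filled circle lies left of the open one for 55 members, and right of it for SNRPN, HNRNPA1P33, SRSF5 and SRSF11.

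The 4 remaining members had a mean FPKM under 1. SRSF12 was at 0.869 in siNT and 0.414 in siPAX9, and HNRNPKP3, a copy of HNRNPK, at 1.02 and 0.593. HNRNPCL2 was at 0.106 and 0.136, and SNRPD2P2 at 0.0486 and 0.0349. No ratio is given for these. Summed over loci that carry a single symbol, the FPKM of siPAX9 relative to siNT was 0.597 for 10 SNRP loci, 0.705 for 18 HNRNP loci, 0.801 for 8 SF3 loci and 0.822 for 10 SRSF loci. Over all loci, those with several symbols included, it was 0.628 for SNRP, 0.625 for HNRNP, 0.789 for SF3 and 0.782 for SRSF, so that the order within each of these pairs turned with the loci counted.

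Many genes of these families have copies elsewhere in the genome, mostly intronless ones (processed pseudogenes), and reads of the parent mRNA can align there. In the GENCODE annotation of GRCh37, unnamed loci of the table over such copies were aligned to the transcript of the parent gene, and 54 loci over 37 copies of 18 parents matched at 90% identity or more over most of their length. The median identity was 97.1%. Of the 54, 2 lie over an unprocessed pseudogene, HNRNPLP2. All 54 loci were lower in siPAX9, with log2 ratios between -1.86 and -0.06. Of the 8684 loci of up to 2000 bases without a symbol, 49.5% were lower. Each of the 18 parents was itself lower, reads can be shared with them, and several loci lie over the same copy. The 54 loci are therefore not a contrast separate from the parents. Of all 63 loci over copies, before the limit on identity, 62 were lower. The exception was a locus over HNRNPH3P1, with 89.0% identity, at 963 FPKM in siNT and 1060 in siPAX9 (log2 ratio 0.14). In siNT, 37 of the 54 had a higher FPKM than the parent gene, among them each of the 18 loci of up to 200 bases, and FPKM divides by length, so that a short locus can reach a high value from few reads.

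HNRNPA1 had the highest number of such loci, 13 over 10 copies. Their log2 ratios were between -1.86 and -0.97 with a median of -1.40, beside -1.39 for HNRNPA1, and 12 of the 16 copy loci that were at least 2-fold lower belonged to it, where 12.4% of the loci without a symbol were at least 2-fold lower. The largest, over HNRNPA1P41, was listed at 18256 FPKM in siNT and at 6752 in siPAX9 (log2 ratio -1.43). Its aligned part is printed, as that of the locus with the highest FPKM, 5′ to 3′ on the strand of the copy, from GRCh37, with the base that differs from the coding part of HNRNPA1 in capitals.
HNRNPA1P41, chr9:4945736-4945825, minus strand: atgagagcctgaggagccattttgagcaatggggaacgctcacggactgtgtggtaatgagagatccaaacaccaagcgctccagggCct
HNRNPA1P41 differed from HNRNPA1 at 1 of 90 bases.

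Copies of other members lay at various distances from their parents. A locus over HNRNPKP2 (chromosome 2) went from 2163 to 1359 FPKM, a log2 ratio of -0.67 beside -0.57 for HNRNPK, and differed from its parent at 2 of 111 bases. A locus over HNRNPA3P3 on chromosome X went from 1798 to 552, a log2 ratio of -1.70 beside -0.75 for HNRNPA3, and had 0 differences in 79 bases. The 2 further loci over this copy had log2 ratios of -0.52 and -0.89, and all 7 loci over copies of HNRNPA3 had a median of -0.78, close to the parent. The HNRNPKP2 locus and the lowest HNRNPA3P3 locus are shown as examples of a close and of a distant pair of ratios, with capitals as before.
HNRNPKP2, chr2:136957358-136957468, minus strand: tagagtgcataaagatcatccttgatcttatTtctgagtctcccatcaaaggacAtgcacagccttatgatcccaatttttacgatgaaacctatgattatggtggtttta
HNRNPA3P3, chrX:139114568-139114646, plus strand: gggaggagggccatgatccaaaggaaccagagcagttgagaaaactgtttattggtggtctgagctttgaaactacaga
Across the 18 parents, the median log2 ratio of the copy loci was within 0.2 of the parent's for 14. The correlation between these values was r = 0.85 (Spearman's rho 0.79), a description across genes measured in the same libraries, whose points can share reads. The other 4 parents were HNRNPU, HNRNPAB, HNRNPC and SNRPE. HNRNPAB had 1 copy locus, at -0.10 beside -0.34 for the gene. The 3 copy loci of HNRNPC had a median of -0.79 beside -0.59, and the 2 of SNRPE had a median of -1.27 beside -1.05.

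**Figure D3:**
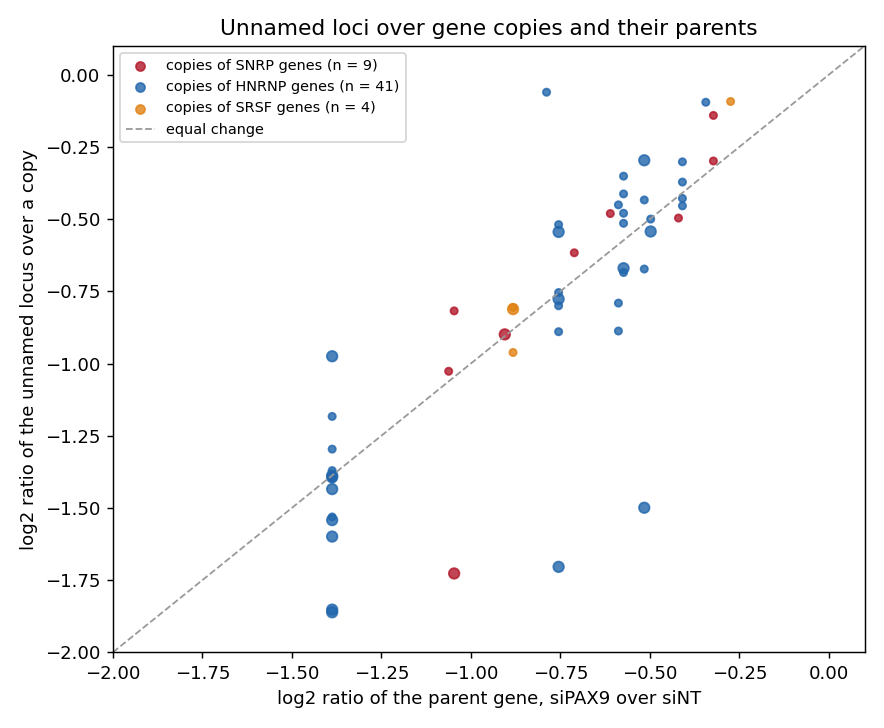
Log2 ratio of siPAX9 over siNT for each of 54 unnamed loci over copies of splicing factor genes (vertical axis) against that of the parent gene (horizontal axis), with larger points for loci of up to 200 bases and a dashed line for equal change. The 13 loci over copies of HNRNPA1 stand in the column at -1.39, and the locus over the HNRNPU copy lies far above the line at -0.06.

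To place the 4 families among other genes of splicing, 7 further lists were examined. Of their 142 genes, 134 outside the 4 families had a mean FPKM of at least 1. In siPAX9, 107 were lower (79.9%, against 55.4% of all symbols) and 27 higher. The median log2 ratio was -0.26, beside -0.07 for all symbols. At least 1.5-fold lower were 22 of the 134, and 4 were at least 2-fold lower. Upward, 1 was at least 1.5-fold higher, where 13.3% of all symbols were, and 1 was 2-fold higher, where 6.37% were. The 22 are 16.4% of the genes, beside 16.5% of all symbols, and the 4 are 2.99%, beside 6.57%. The share at least 1.5-fold lower was thus near the background, and that at least 2-fold lower was under it. The share lower to any degree was above the background.

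The exon junction complex and the LSm proteins had the lowest medians of the 7. The LSm proteins, relatives of the Sm proteins, bind U6 RNA or act in mRNA decay and histone mRNA processing. Their median was -0.46, with 9 of 10 lower and 3 at least 1.5-fold, where 55.4% and 16.5% of all symbols were. LSM6 was at 18.0 FPKM in siNT and 8.10 in siPAX9 (log2 ratio -1.16), and LSM11 of the U7 snRNP at 4.56 and 4.63 (log2 ratio 0.02). The 5 genes of the exon junction complex, which marks spliced mRNA, were all lower, where 55.4% of all symbols were, with a median of -0.54. Of the 5, 2 were at least 1.5-fold lower, beside 16.5% of all symbols. MAGOH was at 18.6 and 8.38 (log2 ratio -1.15) and EIF4A3, the helicase of the complex, at 31.0 and 26.6 (log2 ratio -0.23).

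Among 31 other snRNP and branch site proteins the median was -0.23, with 4 at least 1.5-fold lower, a share under the 16.5% of all symbols. PPIH, a cyclophilin of the tri-snRNP, had 20.3 FPKM in siNT and 9.58 in siPAX9 (log2 ratio -1.09). RNPC3, which serves the minor spliceosome, shares its row with AMY2B, and this row was 2-fold higher, at 8.04 and 17.7 (log2 ratio 1.13), which cannot be given to RNPC3 alone. Among 14 genes of the SMN complex and of snRNP assembly, 13 were lower, beside 55.4% of all symbols, with a median of -0.20. CLNS1A, which hands Sm proteins to the assembly machinery, was at 90.9 and 52.2 (log2 ratio -0.80), and WDR77, part of the enzyme complex that methylates them, at 26.5 and 28.0 (log2 ratio 0.08) on a row shared with OVGP1.

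The Prp19-related and catalytic step proteins had a median of -0.22 with 22 of 28 lower, where 55.4% of all symbols were. They ran from PLRG1 at 19.6 and 11.1 FPKM (log2 ratio -0.82) to PRPF18 at 9.35 and 12.5 (log2 ratio 0.42). The SR kinases and SR-related proteins had the median nearest to that of all symbols, -0.15, with 11 of 15 lower (55.4% of all symbols). In it, TRA2B, a splicing activator with SR domains, was at 33.9 and 18.7 (log2 ratio -0.86), and SRRM2, a scaffold of nuclear speckles, at 117 and 155 (log2 ratio 0.41). The other splicing regulators had a median of -0.33 with 24 of 31 lower, against the same 55.4% of all symbols. RBMX, an hnRNP protein without the HNRNP symbol, went from 124 to 52.2 (log2 ratio -1.25), and ESRP2, an epithelial splicing regulator on a row shared with MIR6773, from 24.8 to 32.0 (log2 ratio 0.36).

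**Figure D4:**
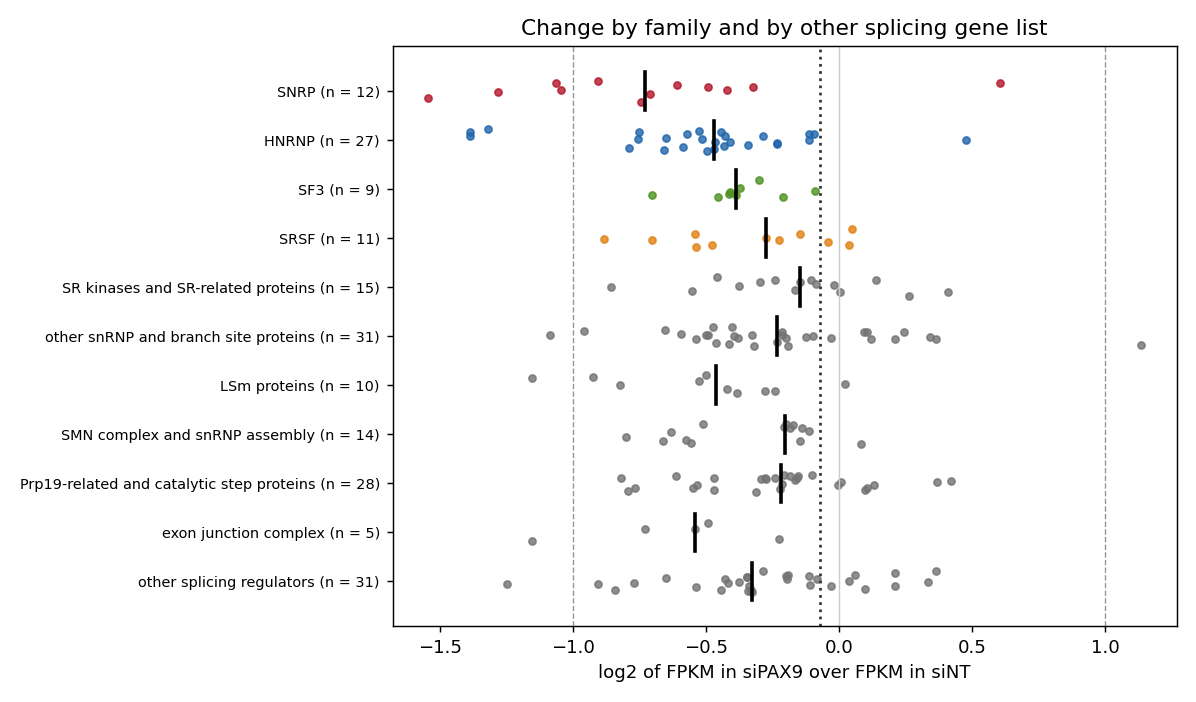
Log2 ratio of FPKM in siPAX9 over siNT (horizontal axis) for each gene of the 4 families (colours) and of 7 other splicing lists (grey), with a black bar at each median, a dotted line at the median of all symbols (-0.07) and dashed lines at 2-fold. The bars run from -0.73 for SNRP to -0.15 for the SR kinases and SR-related proteins, and all lie left of the dotted line.

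The ratios were also set beside coding length and level. Over 55 coding members, Spearman's rho between coding length and log2 ratio was 0.37 and that between transcript length and log2 ratio was 0.19, and over 11042 symbols with a coding length the former was 0.11. Between mean FPKM and log2 ratio, rho was -0.28 over the 59 members and -0.17 over all symbols. These are descriptions across genes of the same libraries.

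The 250 bases upstream of the annotated start were taken for the 51 members in the RefSeq promoter table (GRCh38.p14). They were searched on both strands for CCAAT, the GC box GGGCGG, the E box CACGTG and GCGTGAC, a run found in PAX9 binding sequences. The annotated start was not checked against the reads, so a window can miss the promoter in use. Those of SNRPE and SNRPG, for example, hold the start of their own coding sequence. CCAAT was in 43.1% of the members' windows and 33.0% of all 27305 windows, GGGCGG in 60.8% and 42.3%, CACGTG in 13.7% and 6.49%, and GCGTGAC in 3.92% and 2.27%. Among the 9475 windows of symbols at the level examined, the shares were 35.8%, 66.9%, 9.03% and 3.69%. GCGTGAC was found in 2 members, HNRNPF and SF3B5. The median log2 ratio of members with and without a match was -0.43 and -0.47 for CCAAT, -0.44 and -0.47 for GGGCGG, -0.47 and -0.45 for CACGTG, and -0.47 and -0.45 for GCGTGAC. The windows of the lowest SNRP gene, of the lowest Sm ring gene and of the SR gene with the highest ratio are shown for comparison, with the matches in capitals.
SNRPA, chr19:40750953-40751202, plus strand: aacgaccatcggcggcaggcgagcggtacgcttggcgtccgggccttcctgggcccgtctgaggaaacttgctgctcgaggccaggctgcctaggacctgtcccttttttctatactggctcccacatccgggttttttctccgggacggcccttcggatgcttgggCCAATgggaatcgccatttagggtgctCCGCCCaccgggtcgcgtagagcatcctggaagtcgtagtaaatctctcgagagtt
SNRPF, chr12:95858702-95858951, plus strand: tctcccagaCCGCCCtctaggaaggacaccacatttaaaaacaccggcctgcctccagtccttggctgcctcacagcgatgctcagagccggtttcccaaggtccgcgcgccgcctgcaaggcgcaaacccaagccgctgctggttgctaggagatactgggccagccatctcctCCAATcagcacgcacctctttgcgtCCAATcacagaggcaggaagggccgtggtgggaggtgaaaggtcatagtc
SRSF5, chr14:69766892-69767141, plus strand: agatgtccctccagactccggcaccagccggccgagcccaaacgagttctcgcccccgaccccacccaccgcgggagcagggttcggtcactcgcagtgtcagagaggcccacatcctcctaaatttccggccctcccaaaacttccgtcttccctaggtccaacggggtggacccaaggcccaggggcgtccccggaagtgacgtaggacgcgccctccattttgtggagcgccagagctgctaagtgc
SNRPA held 1 CCAAT and 1 GC box, SNRPF 2 CCAAT and 1 GC box, and SRSF5 none of the 4 motifs. The windows of SNRPB2, SNRPE, SNRPB and SNRPG (log2 ratios -1.28, -1.05, -0.91 and -0.71) also held none of the 4. That of SNRPN, the member with the highest ratio (0.61), held 1 GC box. The windows printed are examples only, and the medians with and without a match cover all members with a window.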

How the data were processed

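Poly(A)+ libraries of 3 siNT and 3 siPAX9 samples were sequenced single-end, and per the labels the authors used Bowtie2, Cufflinks and Partek on hg19. The deposited values are FPKM, 1 per locus and group, in which the authors had combined the samples of a group, and how the libraries were scaled against each other is not given in the sources used here. Depth per library is unknown in the table, so no interval is given. The authors' own fold changes, test statistics, p-values and q-values stand in further columns and were not used.

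Rows were split at commas into symbols, the row with the highest mean FPKM was kept per symbol, and the log2 ratio of siPAX9 over siNT was taken with nothing added, where the mean FPKM was at least 1 and both groups were above 0. Calls are ratios of at least 1.5-fold or 2-fold. The latter is the fold limit of the study's methods, which also set a limit on the q value that was not applied here. Locus starts are given 1-based, as the table's starts count from 0. Members, gene lists and named genes (2-fold members, family extremes, the paralogue sets, the Sm ring, all SF3 genes, and list extremes) were chosen with earlier results of these data known. PRPF18, LSM11 and other list genes are named as extremes, and HNRNPU, HNRNPC, HNRNPK, HNRNPM, HNRNPL, SNRPC, SNRPA1, the SRSF genes in the middle of their family and the copies were named after their values were seen. Of the 63 symbols, 62 were found in GENCODE release 44 placed on GRCh37. Symbols that share a row count once each, which gives 56 loci for 59 members. Copies were aligned with biopython 1.88, and tables and plots were made with Python 3.11.15, pandas 2.3.3, numpy 2.4.6 and matplotlib 3.10.9. The ratio and alignment steps were tested on simulated data.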

Additional observations from a re-analysis of the deposited data

How the results depend on the processing

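No replicate could be left out and no replicate spread exists, since the table has 1 value per group. No paired analysis was possible because the columns carry no replicate number. Medians were taken as moved beyond 0.1 on the log2 scale and counts beyond 1.5 times. Adding 1 or 0.1 to each FPKM, centring on the median of all symbols, a minimum mean FPKM of 10, summing the loci of a symbol, or taking loci with status OK moved none of the 15 medians and counts this far. Centring nevertheless took the members at least 2-fold lower from 7 to 5, without SNRPE and SNRPF, and those at least 1.5-fold lower from 20 to 17, without HNRNPA3P1, HNRNPC and SNRPD2. Without a filter on mean FPKM, the SRSF median was -0.38, since SRSF12 entered, beside -0.39 for SF3. With loci of a single symbol, 13 members of 46 (28.3%) were at least 1.5-fold lower. With a minimum mean FPKM of 50, chosen after seeing the data, 28 members were lower, 11 at least 1.5-fold and 2 at least 2-fold, of 30 members, and the medians were -0.51 for SRSF, -0.018 for the SR kinases and SR-related proteins, -0.34 for the other snRNP and branch site proteins and -0.49 for SMN complex and snRNP assembly, over fewer genes. There SF3, at -0.41, was nearer to the median of all symbols than SRSF. Counting each locus once or leaving out the 6 HNRNP copies, also chosen after seeing the data, moved none of the 15. Among single members, HNRNPA3P1 moved, to -0.40 with 1 added, and SRSF4 changed sign after centring. Differences under 1.5-fold cannot be set against any error here.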
